A study of Homo sapiens with 12 samples.

Results

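The set described here holds the small nucleolar RNAs and the noncoding genes that carry such RNAs in their introns, in 2 human liver cancer cell lines depleted of the ubiquitin-like protein UBL5. Members were chosen by symbol from the deposited count tables: a symbol beginning with SNHG, SNORA, SNORD or SCARNA followed by a number, or one of GAS5, ZFAS1 and EPB41L4A-AS1. Of 20293 genes listed in either line, 71 met this rule. They were 27 host genes (SNHG genes and the 3 named noncoding RNAs) and 44 small RNAs, of which 32 were box C/D and 12 box H/ACA RNAs and 0 were small Cajal body RNAs. HepG2 listed 26 host genes and 34 small RNAs, and Huh7 listed 26 host genes and 36 small RNAs. SNHG15 was listed in Huh7 alone and SNHG14 in HepG2 alone.

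The 12 libraries made 4 groups of 3. HepG2 and Huh7 cells, both labelled as wild-type hepatocellular carcinoma lines, received either a non-target Ctrl-siRNA or an siRNA against UBL5 by lipid transfection, and RNA was taken at 52 h, 36 h after a change of medium, per the labels; the text of the study gives another time. No allele, drug or other agent separated the groups, and each line stands for itself. The libraries came from 0.5 µg of total RNA with a stranded kit that selects polyadenylated RNA. Whether replicates came from cultures transfected apart is not said in the labels, and the p-values then describe only how far these libraries scatter, which may be technical.

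Small nucleolar RNAs are guides: box C/D RNAs direct 2′-O-methylation and box H/ACA RNAs direct pseudouridylation of ribosomal and spliceosomal RNA. In human cells nearly all of them are cut out of the introns of other genes after splicing and lariat debranching, so their making depends on the spliceosome, of which UBL5 is an associated protein. Some hosts encode proteins of the ribosome and nucleolus, and others, the SNHG genes, GAS5 and ZFAS1 among them, are spliced noncoding transcripts of which many are short-lived in the cytoplasm. Mature guide RNAs carry no poly(A) tail, and the counts on a small RNA gene cannot tell the mature RNA apart from a longer polyadenylated RNA that still contains it.

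Of the 44 small RNAs, 38 lay wholly within an intron of an annotated gene on the same strand (GENCODE 44, GRCh38), 4 (SNORD37, SNORD38A, SNORD42B and SNORD48) overlapped an exon edge of a host isoform, and 2 (SNORA11F and SNORD74B) had no host. Hosts were protein-coding for 36 and long noncoding for 6. In 5 of the noncoding cases the host was itself a member of the set: SNORD12C in ZFAS1, SNORA71B in SNHG17, SNORD104 in SNHG25, SNORD99 in SNHG12 and SNORD48 in SNHG32. Because 4 hosts held 10 of the small RNAs between them (among them SNORD19, SNORD19C and SNORD69 in GNL3, SNORA33, SNORD100 and SNORD101 in RPS12, and SNORA5A and SNORA5C in TBRG4), the small RNAs were not independent of each other.

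Several of the box C/D RNAs on which the results below turn are printed 5′ to 3′ as DNA letters, from GENCODE 44 transcripts, with the C box (TGATGA) near the start and the D box (CTGA) near the end in capitals where they were found. They lie on GRCh38 at these places: SNORD12C at chr20:49278940-49279028 (plus strand), SNORD69 at chr3:52692736-52692812 (plus strand), SNORD72 at chr5:40832656-40832735 (minus strand), SNORD94 at chr2:86135870-86136006 (plus strand), SNORD17 at chr20:17962710-17962946 (minus strand) and SNORD104 at chr17:64146083-64146152 (plus strand).
SNORD12C: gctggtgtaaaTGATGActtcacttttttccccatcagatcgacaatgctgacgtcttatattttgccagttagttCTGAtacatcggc
SNORD69: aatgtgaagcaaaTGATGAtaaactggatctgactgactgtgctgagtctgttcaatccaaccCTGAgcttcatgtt
SNORD72: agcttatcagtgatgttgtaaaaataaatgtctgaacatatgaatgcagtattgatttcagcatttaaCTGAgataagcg
SNORD94: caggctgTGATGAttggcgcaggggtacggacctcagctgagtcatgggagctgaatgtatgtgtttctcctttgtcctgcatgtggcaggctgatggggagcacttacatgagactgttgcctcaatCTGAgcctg
SNORD17: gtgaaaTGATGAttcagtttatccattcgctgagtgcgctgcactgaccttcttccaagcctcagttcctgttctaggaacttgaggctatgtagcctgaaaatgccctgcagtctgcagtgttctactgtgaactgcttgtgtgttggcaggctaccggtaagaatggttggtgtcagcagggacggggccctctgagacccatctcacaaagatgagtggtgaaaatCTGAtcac
SNORD104: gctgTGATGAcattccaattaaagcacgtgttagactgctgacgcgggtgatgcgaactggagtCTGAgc
The C box was found within the first 20 bases of 24 of the 32 box C/D members and the D box within the last 20 bases of 30, searched on the transcript strand. Among all 313 SNORD genes of GENCODE 44 the shares were 65.5% and 90.1%. SNORD72 carries the shorter letters TGATG in place of the C box searched for.

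For the box H/ACA RNAs the capitals mark the H box (ANANNA nearest the middle of the RNA, within 15% of its length) and the ACA near the 3′ end. SNORA71B, annotated at 272 bases against a median of 134.0 bases for the class, matched neither at these places. The positions on GRCh38 are SNORA5A at chr7:45104349-45104482 (minus strand), SNORA65 at chr9:127448501-127448630 (minus strand) and SNORA71B at chr20:38425083-38425354 (minus strand).
SNORA5A: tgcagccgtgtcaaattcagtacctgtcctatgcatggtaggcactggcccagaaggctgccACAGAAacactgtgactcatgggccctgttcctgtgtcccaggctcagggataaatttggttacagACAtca
SNORA65: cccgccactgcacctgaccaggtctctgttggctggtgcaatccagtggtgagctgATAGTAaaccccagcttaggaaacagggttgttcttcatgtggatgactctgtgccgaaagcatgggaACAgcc
SNORA71B: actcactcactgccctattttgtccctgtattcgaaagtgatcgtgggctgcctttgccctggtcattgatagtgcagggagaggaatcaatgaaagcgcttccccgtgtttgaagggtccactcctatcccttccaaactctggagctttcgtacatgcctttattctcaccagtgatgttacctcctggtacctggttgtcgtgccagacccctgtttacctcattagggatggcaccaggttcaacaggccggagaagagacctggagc
An H box was found in 11 of the 12 members and a terminal ACA within the last 8 bases in 10, against 89.3% and 82.2% of all 214 SNORA genes of GENCODE 44.

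Parts of the ZFAS1 intron with SNORD12C (365 bases) are shown, because the measured change of this small RNA was far above that of its host in both lines. SNORD12C could remain in the test described below only by being high with UBL5 siRNA, so this is no support for a rise. Exon bases are in capitals and intron bases in lower case, on the plus strand of GRCh38; the first sequence spans the 5′ splice site (chr20:49278729-49278758) and the second runs from the end of the small RNA across the 3′ splice site (chr20:49279029-49279113).
ZFAS1 5′ splice site: TTTGTGTGTGgtgagtggaaactccatgtt
ZFAS1 after SNORD12C: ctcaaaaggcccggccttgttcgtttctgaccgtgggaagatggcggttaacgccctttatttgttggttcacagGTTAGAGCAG
SNORD12C ended 75 bases before the 3′ splice site. Over the 31 box C/D members with a host this distance had a median of 90 bases and ran from 59 to 5672 bases, and over the 11 box H/ACA members it had a median of 131 bases and ran from 67 to 2841 bases.

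Total counts ran from 19469574 to 29744471 per library, of which host genes took 0.105% to 0.168%, and small RNAs between 230 and 955 counts. UBL5 fell from 58.2 ± 2.51 to 4.66 ± 2.06 CPM (counts scaled by library size) in HepG2 and from 68.6 ± 1.91 to 6.31 ± 0.452 CPM in Huh7 (SD, n = 3 each), or by 92% and 90.8%. Ctrl-siRNA replicate 3 of HepG2 stood apart: it had 0 counts for 20 of the 34 listed small RNAs, where the other 5 HepG2 libraries had 0 for 1 to 7, and it held only 630 genes with 1 to 9 counts, where the others held 1605 to 2141. The column names of both HepG2 libraries numbered 3 lack a suffix that all others carry, and its part in this was not tested. HepG2 values of the members described below are given without Ctrl-siRNA replicate 3 where it changes a call or the overlap of the groups, and for SNHG1, SNHG14 and SNORD17. All 8 hepatocyte markers were listed in both lines, at a summed 27920 to 58470 CPM. Of 6 leukocyte markers HepG2 listed CD14 and CD79A, summing to 0.333 to 1.38 CPM in Ctrl-siRNA and 6.09 to 9.28 CPM in UBL5-siRNA libraries, and Huh7 listed CD14, at 1.49 to 1.76 and 4.34 to 5.38 CPM. The other leukocyte markers (PTPRC, CD3E, CD68 and LST1) did not appear among the listed genes. Endothelial markers (2 of 5 in HepG2, 1 of 5 in Huh7) summed to at most 6.45 CPM in any library, and the 6 fibroblast markers, all listed, to 7.81 to 14.0 and 10.3 to 26.1 CPM in HepG2 and 31.6 to 35.3 and 18.0 to 30.9 CPM in Huh7. Of these, COL1A2, COL3A1 and DCN read 4.51, 4.10 and 1.04 CPM in HepG2 UBL5-siRNA replicate 2. In Huh7 UBL5-siRNA replicate 3 they read 4.83, 4.36 and 1.21 CPM, and at most 0.959 CPM in every other library. LUM fell in Huh7 from a mean of 27.7 to 9.51 CPM. The part of these markers in the results was not tested.

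Host genes were examined first, since the libraries select polyadenylated RNA. Host counts cannot tell spliced RNA apart from RNA that keeps an intron where annotated exons cover it. For SNHG1, SNHG8, SNHG9, SNHG15, SNHG19 and EPB41L4A-AS1 the exons of all isoforms together cover the whole gene. The share of such RNA in the host changes was not tested. With UBL5 siRNA, 10 of the 26 host genes tested in HepG2 rose and 1 fell (edgeR quasi-likelihood test, Benjamini-Hochberg adjusted p under 0.05), while 16.5% of all 15755 genes tested were called higher and 20.1% lower. In Huh7, 18 of 26 rose and 2 fell, against backgrounds of 34.9% and 36.4%. The median log2 fold change of the host genes was 0.31 in HepG2 and 0.73 in Huh7, beside 0.01 and -0.01 for all genes tested. All listed host genes passed the filter on low counts. Both lines called 8 host genes higher (SNHG3, SNHG10, SNHG16, SNHG17, SNHG25, SNHG30, GAS5 and ZFAS1), and SNHG31 was called lower in both. Without Ctrl-siRNA replicate 3, 12 were called higher and 1 lower in HepG2, against backgrounds of 21.0% and 24.2%. SNHG9 (1.15, adjusted p = 0.0253) and SNHG21 (1.26, adjusted p = 0.0331) were then called higher, and SNHG7 (-0.32, adjusted p = 0.0363) was called lower in place of SNHG31.

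**Figure D1:**
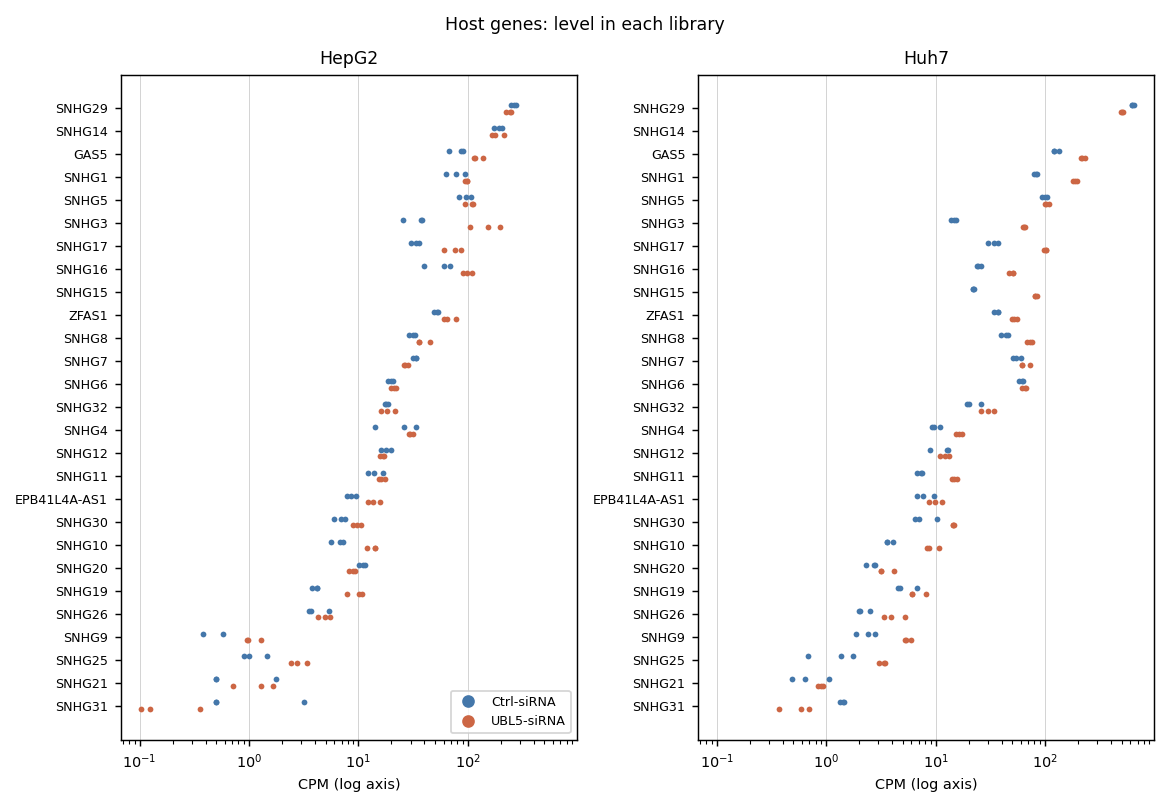
Levels of the host genes in each library, as CPM on a log axis, in HepG2 (left) and Huh7 (right). Each point is 1 library, Ctrl-siRNA above and UBL5-siRNA below the row of each gene; SNHG9 had 0 counts in 1 HepG2 control library, which is not drawn. The points of SNHG3, SNHG17, SNHG10, GAS5 and ZFAS1 lie apart by siRNA in both lines, while those of SNHG5 and SNHG6 intermingle.

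GAS5, the growth arrest-specific transcript whose introns are known to carry box C/D RNAs, stood at 86.2, 67.8 and 91.1 CPM in the HepG2 Ctrl-siRNA libraries and at 115, 116 and 138 CPM with UBL5 siRNA. In Huh7 it stood at 120, 121 and 135 CPM and then at 219, 215 and 231 CPM. All UBL5-siRNA libraries were above all control libraries in both lines, by a log2 fold change of 0.59 ± 0.13 (SE; edgeR adjusted p = 0.00774) for HepG2 and 0.82 ± 0.06 (1.3e-07) for Huh7. ZFAS1, which holds SNORD12, SNORD12B and SNORD12C, read 53.3, 48.8 and 52.5 CPM against 64.1, 60.6 and 77.7 CPM in HepG2. Its Huh7 values were 33.8, 37.2 and 36.8 CPM against 55.2, 50.0 and 52.3 CPM. The groups did not overlap in either line, and the changes were 0.39 ± 0.11 (adjusted p = 0.0270) and 0.55 ± 0.06 (adjusted p = 1.20e-05). The HepG2 call of ZFAS1 was lost when control replicate 1 (0.056), control replicate 2 (0.096) or UBL5-siRNA replicate 3 (0.068) was left out. GENCODE places exons of other genes over 43.1% of the ZFAS1 exon bases, mostly on the opposite strand.

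EPB41L4A-AS1, host of SNORA13, gave 7.85, 8.62 and 9.44 CPM in HepG2 controls and 13.6, 12.1 and 15.7 CPM with UBL5 siRNA, without overlap (log2 fold change 0.68 ± 0.16, adjusted p = 0.0101). In Huh7 the groups overlapped, at 6.72, 7.62 and 9.58 CPM against 8.62, 9.96 and 11.4 CPM, and the change of 0.34 ± 0.15 did not pass the test (adjusted p = 0.0564). It passed without Ctrl-siRNA replicate 3 (0.0084) or UBL5-siRNA replicate 1 (0.028). SNHG1, whose introns hold SNORD22 and SNORD25 to SNORD30, did the reverse. Its HepG2 values of 94.6, 77.2 and 62.9 CPM against 97.8, 98.9 and 94.3 CPM overlapped (0.31 ± 0.14, adjusted p = 0.113; 0.0496 with the replicate number as a block and 0.022 without Ctrl-siRNA replicate 1). Without Ctrl-siRNA replicate 3 the value was 0.18 ± 0.11 (adjusted p = 0.213). In Huh7 the control values of 85.0, 78.6 and 83.3 CPM lay far below the 196, 180 and 188 CPM of the UBL5-siRNA libraries (1.19 ± 0.05, adjusted p = 4.56e-09).

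The largest rises among the host genes called were those of SNHG3 in both lines. This host of SNORA73A and SNORA73B, the RNAs also known as U17, rose from 37.8, 37.6 and 25.4 CPM to 105, 152 and 197 CPM in HepG2 (log2 fold change 2.17 ± 0.24, adjusted p = 0.000315). In Huh7 it rose from 15.4, 13.9 and 14.6 CPM to 64.4, 65.2 and 62.9 CPM (2.13 ± 0.06, adjusted p = 6.24e-10). The lowest UBL5-siRNA library thus exceeded the highest control library by a wide margin in each line. SNHG15, host of SNORA9 and listed in Huh7, followed with 22.6, 22.1 and 21.9 CPM against 85.2, 81.0 and 81.3 CPM (1.89 ± 0.06, adjusted p = 5.29e-10). SNHG17, host of the SNORA71 family, moved from 33.6, 30.4 and 35.6 CPM to 59.9, 76.2 and 87.2 CPM in HepG2 and from 37.5, 30.2 and 34.4 CPM to 96.9, 101 and 101 CPM in Huh7, again without overlap (1.16 ± 0.14 and 1.55 ± 0.07, adjusted p = 0.000529 and 8.44e-09).

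SNHG25, the short host of SNORD104 and SNORA50C, rose by 1.35 ± 0.36 (adjusted p = 0.0186) in the HepG2 libraries and by 1.42 ± 0.27 (0.000504) in those of Huh7, from means of 1.12 and 1.26 CPM to 2.86 and 3.28 CPM. Its HepG2 call was lost without replicate 2 of the controls (0.064) or either of UBL5-siRNA replicates 2 (0.099) and 3 (0.054), and 39.7% of its exon bases are shared with other genes. SNHG10, host of SCARNA13, rose by 1.04 ± 0.16 (adjusted p = 0.00152) and 1.31 ± 0.13 (adjusted p = 3.65e-06). SNHG16, which carries the SNORD1 family, rose from 68.0, 60.5 and 39.4 CPM to 97.5, 90.4 and 109.5 CPM in HepG2 (0.83 ± 0.19, adjusted p = 0.00839). Its Huh7 values went from 24.0, 24.3 and 25.9 CPM to 51.1, 47.1 and 51.4 CPM (1.01 ± 0.07, adjusted p = 8.86e-08). SNHG19, host of SNORD60, rose in HepG2 by 1.25 ± 0.19 (adjusted p = 0.00143). SNHG30 rose there by 0.52 ± 0.17 (adjusted p = 0.0368), a call that ended without any single library other than Ctrl-siRNA replicate 3 (0.054 to 0.13). The remaining Huh7 host genes called higher were SNHG4, SNHG7, SNHG8, SNHG9, SNHG11, SNHG20, SNHG26, SNHG30 and SNHG32, with log2 fold changes of 0.26 to 1.23. Of these, SNHG20 (0.41 ± 0.17, adjusted p = 0.0473) was lost without any 1 of the control libraries (0.055 to 0.15) or UBL5-siRNA replicate 1 (0.20), and SNHG7 (0.26 ± 0.08, adjusted p = 0.0119) without UBL5-siRNA replicate 3 (0.054).

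Few host genes fell. SNHG31, host of SNORA70I, showed the largest called fall of the host genes in both lines, with 13, 12 and 95 counts against 8, 3 and 2 counts in HepG2 and 40, 30 and 29 counts against 12, 14 and 8 counts in Huh7. The groups did not overlap in either line, but the HepG2 value of -2.81 ± 0.94 (adjusted p = 0.0449) leaned on Ctrl-siRNA replicate 3: without that library it was -1.33 (adjusted p = 0.0627), with the replicate block -2.32 (0.12), and it was also lost without any 1 of the UBL5-siRNA libraries (0.060 to 0.16). In Huh7 it fell by 1.34 ± 0.27 on the log2 scale (adjusted p = 0.000845). SNHG29, the host of SNORD49A, SNORD49B and SNORD65, fell in Huh7 from 619, 645 and 626 CPM to 516, 497 and 503 CPM, by 0.32 ± 0.04 on the log2 scale (adjusted p = 3.22e-05). In HepG2 it read 264, 248 and 277 CPM against 246, 221 and 243 CPM, also without overlap, and did not pass the test (-0.15 ± 0.08, adjusted p = 0.177).

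Several well-measured hosts showed no call. SNHG5, host of SNORD50B, read 107, 95.8 and 82.4 CPM against 111, 95.1 and 109 CPM in HepG2 and 93.7, 104 and 99.4 CPM against 108, 99.7 and 102 CPM in Huh7, overlapping in both. SNHG14, the large host of the SNORD115 and SNORD116 clusters, was listed in HepG2 with 204, 194 and 174 CPM against 212, 176 and 165 CPM (-0.05 ± 0.11, adjusted p = 0.762; -0.11 without Ctrl-siRNA replicate 3). SNHG6 and SNHG12 overlapped in both lines, with log2 fold changes between -0.11 and 0.10. Without Ctrl-siRNA replicate 3 the HepG2 groups of SNHG6 did not overlap (0.14 ± 0.12, adjusted p = 0.377). Across the 15 host genes without a call in HepG2 the log2 fold changes ran from -0.30 to 1.76, and across the 6 in Huh7 from 0.06 to 0.36. For 10 host genes over 20% of the exon bases coincide with those of other annotated genes, and without these 6 host genes were called higher in HepG2 and 11 in Huh7.

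Many transcripts that carry small nucleolar RNAs are known to begin with a 5′ TOP tract, a C followed by at least 4 pyrimidines at the transcript start. Such a tract began and ended between 3 bases before and 12 bases after the RefSeq start in 10 of the 23 host genes with an entry examined (43.5%), beside 19.1% of all 35116 promoters of the table, searched on the transcript strand. For several of the host genes given above by library, 50 bases around the start are printed from RefSeq (GRCh38.p14), with the tract in capitals. The starts printed with a tract are those of ZFAS1 (chr20:49278622-49278671, plus strand), SNHG5 (chr6:85678704-85678753, minus strand), SNHG16 (chr17:76557744-76557793, plus strand) and SNHG17 (chr20:38435299-38435348, minus strand).
ZFAS1: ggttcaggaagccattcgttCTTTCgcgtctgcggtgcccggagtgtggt
SNHG5: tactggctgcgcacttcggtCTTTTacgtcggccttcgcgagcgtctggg
SNHG16: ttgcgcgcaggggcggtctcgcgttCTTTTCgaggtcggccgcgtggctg
SNHG17: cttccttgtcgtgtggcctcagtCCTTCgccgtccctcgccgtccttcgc
No tract was matched in this window for GAS5 (chr1:173869016-173869065, minus strand), SNHG1 (chr11:62855856-62855905, minus strand) and SNHG3 (chr1:28505923-28505972, plus strand), nor for EPB41L4A-AS1, SNHG14 and SNHG29.
GAS5: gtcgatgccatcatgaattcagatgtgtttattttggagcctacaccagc
SNHG1: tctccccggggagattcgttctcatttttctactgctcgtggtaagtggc
SNHG3: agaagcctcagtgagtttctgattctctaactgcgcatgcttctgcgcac
Hosts with a tract both rose (ZFAS1, SNHG16, SNHG17) and fell (SNHG31) or showed no call (SNHG5). The first RefSeq entry of each gene was used. For GAS5, SNHG3 and SNHG14 its window lies outside the GENCODE 44 gene. Those genes span chr1:173858559-173868882, chr1:28505980-28510892 and chr15:24978583-25420336. The missing tract therefore does not describe the annotated starts of these 3 genes, which the share of 43.5% counts as without a tract.

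The small RNAs were counted thinly, with at most 58 counts in any library except for SNORD17 and SNORD104, and the precision of each value is set by that depth. Over all listed small RNAs, no filter beyond the listing itself was applied. Every UBL5-siRNA library exceeded every control library for 32 of 36 in Huh7, where 34.3% of all listed genes did so. In HepG2 this held for 20 of 34, against 24.9%. Without Ctrl-siRNA replicate 3 it was 25 of 34 in HepG2, against 30.4%. Of the listed small RNAs, 0 in Huh7 and 1 in HepG2 (SNORD17) lay below the controls in this way. The tables list only genes with at least 11 counts summed over the HepG2 libraries or 15 over the Huh7 libraries, so small RNAs below that are not analysed here. An RNA near 0 in the controls could thus be listed only by being higher with UBL5 siRNA. Examples are SNORD111 in HepG2 (0 against 28 counts) and SNORD11 in Huh7 (2 against 25 counts). These counts, the calls without a filter and the fold medians below include such RNAs, which are no support for a rise.

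**Figure D2:**
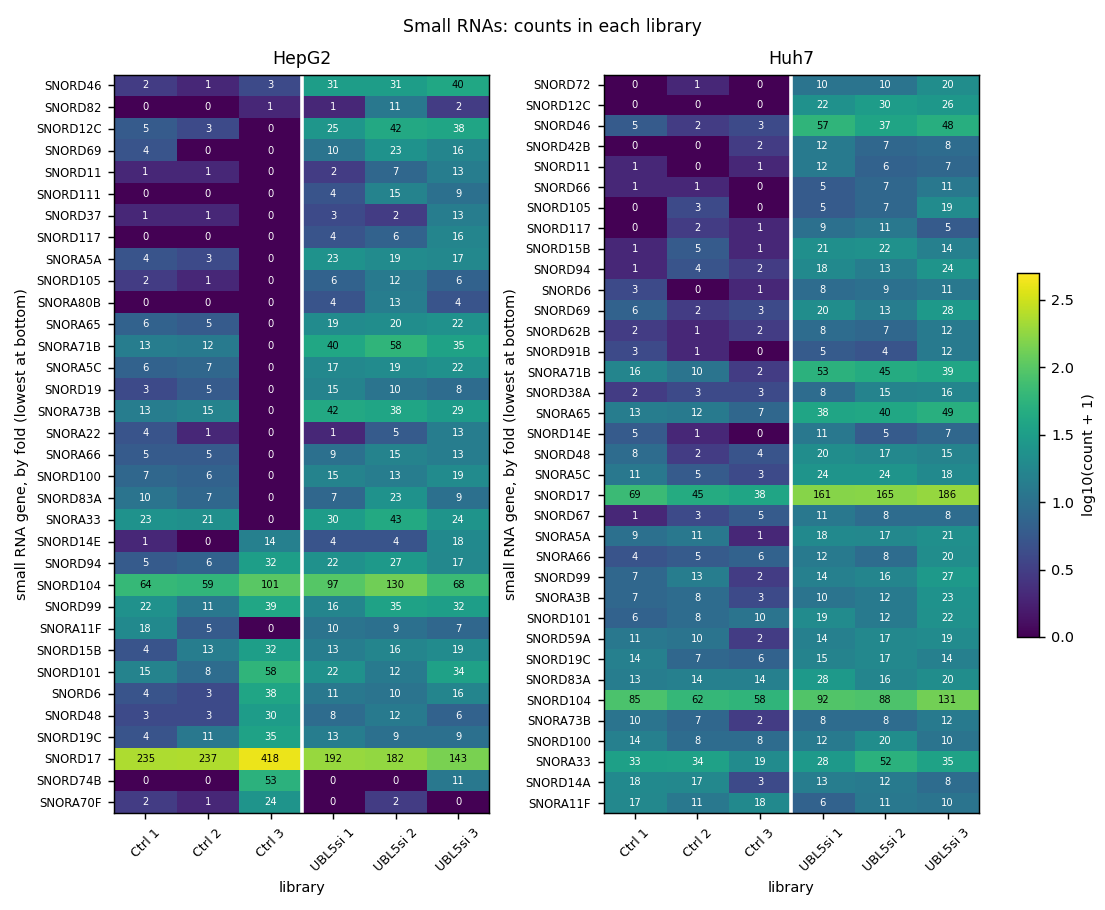
Deposited counts of every listed small RNA in each library, HepG2 on the left and Huh7 on the right, ordered by the fold from summed counts and coloured by log10(count + 1). The white line separates Ctrl-siRNA from UBL5-siRNA libraries; the column of HepG2 Ctrl-siRNA replicate 3 shows 0 for 20 of 34 genes and the highest control counts for SNORD74B (53), SNORD6 (38) and SNORD48 (30).

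Tested by edgeR without a filter on low counts, 31 of the 36 small RNAs in Huh7 were called higher (background 33.8%) and 7 of the 34 in HepG2 (background 15.4%). With the filter, 23 remained in Huh7 and 18 in HepG2, but 10 and 7 of these reached the required level in no control library, so that they could remain in the test only by being high with UBL5 siRNA. In Huh7 these were SNORA3B, SNORA5C, SNORD12C, SNORD15B, SNORD46, SNORD48, SNORD59A, SNORD69, SNORD72 and SNORD94, and in HepG2 SNORA5A, SNORA5C, SNORA65, SNORD12C, SNORD46, SNORD69 and SNORD100; their adjusted p-values below describe RNAs selected in this way and are no support for a rise. The 19 calls in Huh7 comprised 10 such RNAs and 9 of the 13 that passed with libraries of both groups. In HepG2 all 5 calls were such RNAs, and 0 of the other 11 was called. These 13 and 11 reached the level in some or all controls. Those below it in any control also needed UBL5-siRNA libraries to remain in the test. Of the RNAs at the level in all 3 controls, 3 of 5 were called higher in Huh7 and 0 of 3 in HepG2. The shares over all genes tested were 34.9% and 16.5%. A small RNA called lower was found in neither line by edgeR or by DESeq2 (0 in each; at an unadjusted p under 0.05, 1 in HepG2 and 0 in Huh7). Without Ctrl-siRNA replicate 3, 12 were called higher in HepG2 (background 21.0%), of which 9 reached the required level in neither remaining control library, and with the replicate number as a block 3 (background 18.9%). From summed counts, with controls at 0 set to the floor of 3 counts over the group, the median log2 fold over all listed small RNAs was 2.18 in HepG2 and 2.10 in Huh7, beside -0.01 and -0.03 over all listed genes.

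SNORD12C, in the intron of ZFAS1 shown above, had 0 counts in each Huh7 control library and 22, 30 and 26 counts with UBL5 siRNA. Set against the floor of 3 counts over the control group, it was at least 29.6-fold higher. In HepG2 it had 5, 3 and 0 counts against 25, 42 and 38 counts, without overlap (log2 fold change 3.90 ± 0.87, adjusted p = 0.00831; without Ctrl-siRNA replicate 3, 3.28 ± 0.46, adjusted p = 0.000533). SNORD46 had 2, 1 and 3 counts against 31, 31 and 40 counts in HepG2 and 5, 2 and 3 counts against 57, 37 and 48 counts in Huh7. The log2 fold changes were 4.32 ± 0.65 (adjusted p = 0.00125) and 3.96 ± 0.34 (adjusted p = 9.12e-07). The HepG2 call also stood without Ctrl-siRNA replicate 3 (4.58 ± 0.53, adjusted p = 0.000234). ZFAS1 itself changed by 0.39 and 0.55 on the log2 scale.

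SNORD69, in an intron of the nucleolar GTPase gene GNL3, had 4, 0 and 0 counts against 10, 23 and 16 counts in HepG2 and 6, 2 and 3 counts against 20, 13 and 28 counts in Huh7. The groups were separate in both lines (3.75 ± 1.12, adjusted p = 0.0286, and 2.62 ± 0.43, adjusted p = 0.000175). The HepG2 call was lost with the replicate block (0.069), without Ctrl-siRNA replicate 2 (0.090) and without any 1 of the UBL5-siRNA libraries (0.057 to 0.11), and held without Ctrl-siRNA replicate 3 (0.0075). SNORD72, in an intron of RPL37 and listed in Huh7, had 0, 1 and 0 counts against 10, 10 and 20 counts, a ratio of 45.6 with a 95% counting interval of 7.72 to 1844. SNORD15B, in RPS3, had 1, 5 and 1 counts against 21, 22 and 14 counts in Huh7 (3.14 ± 0.52, adjusted p = 0.000184). In HepG2 its counts overlapped, at 4, 13 and 32 against 13, 16 and 19 (0.32 ± 0.72, adjusted p = 0.767), and without Ctrl-siRNA replicate 3 they did not (1.08 ± 0.51, adjusted p = 0.112).

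SNORD94, in an intron of PTCD3, a gene for a mitochondrial ribosome protein, had 1, 4 and 2 counts against 18, 13 and 24 counts in Huh7 (3.08 ± 0.48, adjusted p = 0.000116). In HepG2 the counts of 5, 6 and 32 against 22, 27 and 17 overlapped (0.96 ± 0.72, adjusted p = 0.337), and without Ctrl-siRNA replicate 3 they did not (2.15 ± 0.39, adjusted p = 0.00189). The same library stood highest of the controls for SNORD6 (4, 3 and 38 counts against 11, 10 and 16), which was called only without it (1.97 ± 0.53, adjusted p = 0.0137; with it 0.13 ± 0.92, adjusted p = 0.929). SNORD74B had counts only in the libraries numbered 3 of HepG2, 53 with Ctrl-siRNA and 11 with UBL5 siRNA.

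SNORD17 and SNORD104 were the small RNAs with the highest counts. SNORD17, a box C/D RNA of 237 bases in an intron of the endosomal sorting gene SNX5, had 69, 45 and 38 counts against 161, 165 and 186 counts in Huh7 (1.94 ± 0.14, adjusted p = 1.78e-07). In HepG2 it went the other way, with 235, 237 and 418 counts against 192, 182 and 143 counts. Its scaled HepG2 levels did not overlap either, at 9.0, 9.92 and 13.9 CPM against 8.47, 7.54 and 7.42 CPM, but the difference did not pass the test (-0.49 ± 0.20, adjusted p = 0.0819; without Ctrl-siRNA replicate 3, -0.28 ± 0.15, adjusted p = 0.165). SNORD104, in SNHG25, had 85, 62 and 58 counts against 92, 88 and 131 counts in Huh7 (0.79 ± 0.16, adjusted p = 0.000956). Its HepG2 counts were 64, 59 and 101 against 97, 130 and 68, with scaled levels that did not overlap (0.67 ± 0.27, adjusted p = 0.0842; without Ctrl-siRNA replicate 3, 0.84 ± 0.23, adjusted p = 0.0160).

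The smallest called rises in Huh7 were those of SNORD104, SNORD83A (0.82 ± 0.31, adjusted p = 0.0318), SNORD19C (0.95 ± 0.32, adjusted p = 0.0197), SNORD59A (1.3 ± 0.39, adjusted p = 0.0113), SNORD101 (1.3 ± 0.37, adjusted p = 0.00782) and SNORA3B (1.49 ± 0.43, adjusted p = 0.00850). SNORD83A, in RPL3, was lost when control replicate 1 (0.12), control replicate 2 (0.058) or UBL5-siRNA replicate 1 (0.14) was left out. SNORD19C, in GNL3, was lost when control replicate 2 (0.067), control replicate 3 (0.062) or UBL5-siRNA replicate 2 (0.064) was left out. SNORD101, SNORD100 and SNORA33 share the host RPS12, and of the 3 only SNORD101 was called in Huh7. The 4 tested small RNAs without a call there were SNORA33, SNORD100, SNORD14A and SNORA11F, with log2 fold changes of 0.61, 0.67, -0.0026 and -0.58. SNORA33 passed without Ctrl-siRNA replicate 2 (0.048) or UBL5-siRNA replicate 1 (0.031).

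Among the box H/ACA RNAs, SNORA5A and SNORA5C lie in separate introns of TBRG4, a gene for a mitochondrial RNA-binding protein. SNORA5A had 4, 3 and 0 counts against 23, 19 and 17 counts in HepG2 and 9, 11 and 1 counts against 18, 17 and 21 counts in Huh7, without overlap in either (3.24 ± 0.90, adjusted p = 0.0215, and 1.59 ± 0.44, adjusted p = 0.00631). Its HepG2 call was lost without Ctrl-siRNA replicate 2 (0.062) or any 1 of the UBL5-siRNA libraries (0.071 to 0.076). SNORA5C had 6, 7 and 0 counts against 17, 19 and 22 counts in HepG2 (2.36 ± 0.94, adjusted p = 0.0811; without Ctrl-siRNA replicate 3, 1.74 ± 0.41, adjusted p = 0.00703). In Huh7 it had 11, 5 and 3 counts against 24, 24 and 18 counts (1.97 ± 0.36, adjusted p = 0.000408).

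SNORA65, in RPL12, had 6, 5 and 0 counts against 19, 20 and 22 counts in HepG2, where its adjusted p was 0.0499 (2.67 ± 0.92) and rose to 0.078 to 0.15 without any 1 library other than Ctrl-siRNA replicate 3 (0.0028 without that one), and to 0.097 with the replicate block. In Huh7 the counts were 13, 12 and 7 against 38, 40 and 49 (2.16 ± 0.25, adjusted p = 9.91e-06). SNORA71B, in SNHG17, had 13, 12 and 0 counts against 40, 58 and 35 counts in HepG2 (2.59 ± 0.91, adjusted p = 0.0528; without Ctrl-siRNA replicate 3, 1.99 ± 0.31, adjusted p = 0.000977). Its Huh7 counts were 16, 10 and 2 against 53, 45 and 39 (2.48 ± 0.36, adjusted p = 6.86e-05). SNORA73B, the U17 RNA in an intron shared by RCC1 and SNHG3, had 13, 15 and 0 counts against 42, 38 and 29 counts in HepG2 (2.14 ± 0.93, adjusted p = 0.104; without Ctrl-siRNA replicate 3, 1.54 ± 0.30, adjusted p = 0.00306). In Huh7 it had 10, 7 and 2 counts against 8, 8 and 12 counts, with scaled levels that just missed overlapping, and did not reach the filter.

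The remaining listed small RNAs were below the filter, 16 in HepG2 and 13 in Huh7. All 13 of those in Huh7 and 9 of the 16 in HepG2 had every UBL5-siRNA library above every control library, within the limit of the listing given above. The shares over all listed genes were 34.3% and 24.9%. Of these, 3 had 0 counts in all HepG2 controls, which allows up to 3 counts over the group: SNORD111 was at least 11.3-fold, SNORD117 at least 10.5-fold and SNORA80B at least 8.48-fold higher. With 1 to 3 counts in the controls, SNORD11 gave a ratio of 13.3 (95% counting interval 3.28 to 117) in HepG2 and 14.2 (3.55 to 124) in Huh7. SNORD37 (HepG2), SNORD42B (Huh7) and SNORD48 (both) share 42.4%, 71.6% and 60.9% of their bases with exons of EEF2, RPL23A and SNHG32, so that their counts cannot be told apart from spliced host RNA there. SNORD48 in Huh7 was tested and is among the 19 calls. These intervals and floors cover counting error only, since the reads carried no molecular identifiers.

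Relative to its host, the small RNA was compared as counts per 1000 host counts, which is not corrected for length and is meaningful only between groups. In Huh7 this ratio was higher in every UBL5-siRNA library than in every control library for 27 of 34 pairs, lower for 0, and overlapping for 7. In HepG2 it was higher for 18 of 31 pairs, lower for 0 and overlapping for 13, and higher for 24 without Ctrl-siRNA replicate 3. These pairs include RNAs that could be listed only through the UBL5-siRNA libraries. SNORD111, SNORD117 and SNORA80B had a ratio of 0 in each HepG2 control. No share over other pairs of genes was counted. Where the host changed little, the ratio repeats the separation of the small RNA and is no further support for it. SNORA73B was set against RCC1, the host with more counts. Against SNHG3 its ratio overlapped in HepG2, at 13.2, 16.7 and 0 per 1000 in controls and 17.7, 10.3 and 7.63 with UBL5 siRNA, so that 17 of 31 pairs were higher. In Huh7 that ratio was 23.0, 22.5 and 6.87 against 6.12, 6.11 and 8.85 per 1000, also overlapping. The 31 HepG2 pairs drew on 26 hosts and the 34 Huh7 pairs on 29. The 29 protein-coding hosts themselves were called higher in 13 and lower in 5 cases in HepG2 and in 24 and 3 cases in Huh7, with median log2 fold changes of 0.25 and 0.26. The shares over all genes tested were 16.5% higher and 20.1% lower in HepG2 and 34.9% and 36.4% in Huh7. Without Ctrl-siRNA replicate 3, 8 of these hosts were called higher and 5 lower in HepG2, against 21.0% and 24.2%.

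For SNORD12C the ratio to ZFAS1 was 3.60, 2.57 and 0 per 1000 in HepG2 controls and 17.2, 28.7 and 25.4 with UBL5 siRNA, and in Huh7 it was 0 in each control and 19.6, 29.9 and 23.1 with UBL5 siRNA. The groups overlapped in neither line, and an exact two-sided permutation test of 3 against 3 libraries cannot go below p = 0.1 for a single pair. SNORA71B, whose host SNHG17 itself rose, went from 14.8, 16.5 and 0 to 29.4, 31.5 and 20.8 per 1000 in HepG2 and from 15.2, 14.8 and 2.92 to 26.9, 22.2 and 17.9 in Huh7. SNORD104 behaved differently. The log2 change of its host SNHG25 (1.35 and 1.42) was above its own (0.67 and 0.79). Its ratio went from 1684, 2458 and 3741 to 1764, 1585 and 1283 per 1000 in HepG2 and from 4474, 1590 and 2148 to 1314, 1443 and 1819 in Huh7, overlapping in both. SNORD19C also lay below its host GNL3, at -0.34 and 0.95 against 0.65 and 1.12. Its ratio from summed counts went from 3.435 to 1.645 per 1000 in HepG2 and from 3.134 to 2.809 in Huh7, and the libraries overlapped in both. Without Ctrl-siRNA replicate 3 the HepG2 changes were 0.63 for SNORD19C and 0.62 for GNL3. For SNORD17 the ratio to SNX5 was separate in Huh7 (11.5, 9.79 and 9.46 against 28.4, 29.8 and 32.7 per 1000) and overlapped in HepG2 (8.06, 10.3 and 13.4 against 12.7, 13.2 and 11.4), where SNX5 itself fell by 0.72 ± 0.09 on the log2 scale (adjusted p = 0.000507).

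**Figure D3:**
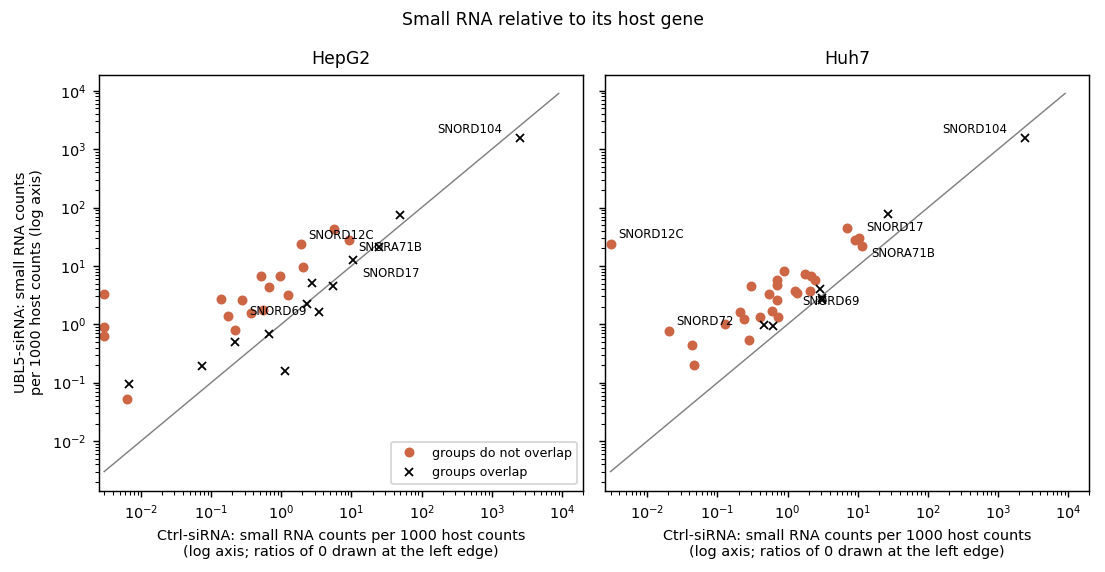
Counts of each small RNA per 1000 counts of its host gene, summed over the 3 libraries of each group, with Ctrl-siRNA on the horizontal and UBL5-siRNA on the vertical log axis. Each symbol is 1 small RNA, circles where the groups of libraries do not overlap and crosses where they do. In HepG2 24 of 31 pairs and in Huh7 31 of 34 lie above the line of equality, and SNORD104 and SNORD19C lie below it in both.

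Position in the intron and kind of host were then set beside the response. Small RNAs ending within 100 bases of the 3′ splice site had a median log2 fold from summed counts of 3.01 (14 RNAs) in HepG2 and 2.18 (17 RNAs) in Huh7, and those farther away 1.82 (18 RNAs) and 2.06 (18 RNAs). With a ribosomal protein gene as host the medians were 1.80 (8 RNAs) and 1.60 (13 RNAs), and with another host 2.38 (24 RNAs) and 2.30 (22 RNAs). In Huh7 all 22 small RNAs with another host, and 10 of the 13 in ribosomal protein genes, lay above all controls without overlap. This held for 34.3% of all listed genes. In HepG2 it held for 15 of 24 and 5 of 8, against 24.9%. These counts and medians include RNAs that could be listed only through the UBL5-siRNA libraries. These are descriptions of few RNAs over wide ranges, and no test was made between them.

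Responses of the lines were compared directly by the interaction of siRNA and line. Of the members tested, 5 of 25 host genes and 1 of 23 small RNAs differed (edgeR adjusted p under 0.05), against 21.5% of 15668 genes. SNORD17 differed most, its log2 response being 2.41 ± 0.26 higher in Huh7 than in HepG2 (adjusted p = 6.40e-05). SNHG1 (0.85 ± 0.15, adjusted p = 0.00155) and SNHG11 (0.82 ± 0.18, adjusted p = 0.00592) responded more in Huh7, and SNHG19 (-0.92 ± 0.27, adjusted p = 0.0288) more in HepG2. SNHG7 and SNHG20 lay below the controls in HepG2 and above them in Huh7 without overlap, with differences of 0.52 ± 0.12 (adjusted p = 0.00824) and 0.69 ± 0.23 (adjusted p = 0.0441); SNHG7 in HepG2 reached an adjusted p of 0.0506 (0.041 with the replicate block). For SNORD12C the difference of 3.89 ± 1.61 did not pass (adjusted p = 0.113), but did without HepG2 Ctrl-siRNA replicate 3 (4.49, adjusted p = 0.0223), and it rests on a Huh7 control group at 0. In 10 of the 25 host genes and 13 of the 26 small RNAs listed in both lines, the UBL5-siRNA libraries lay above all control libraries in each line. Over all listed genes 24.9% did so in HepG2 and 34.3% in Huh7. The share that did so in both lines was not counted, so these 2 counts have no background and nothing is read from them.

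**Figure D4:**
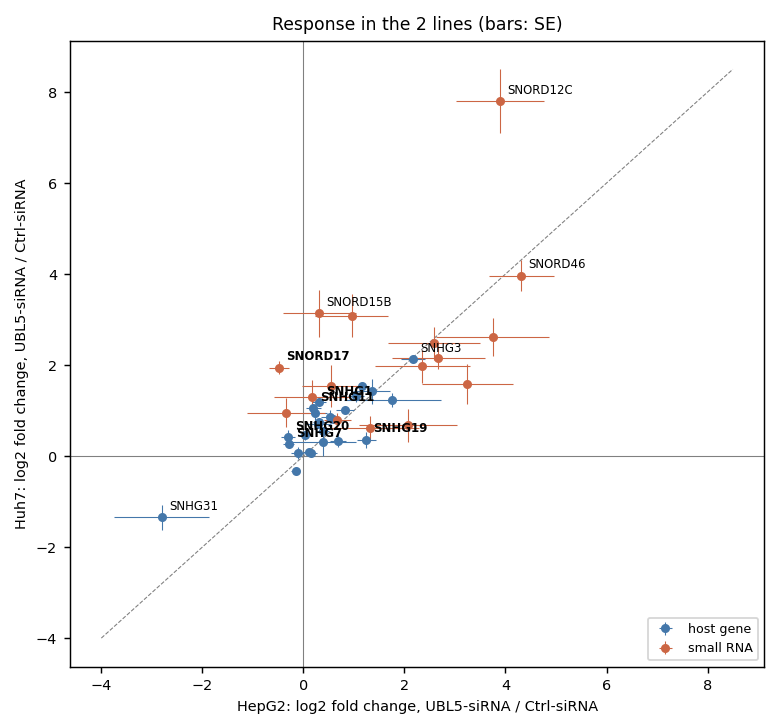
Log2 fold change (UBL5-siRNA over Ctrl-siRNA) of the members tested in both lines, HepG2 on the horizontal and Huh7 on the vertical axis, with SE bars; host genes in blue, small RNAs in orange, and names in bold where the interaction was called. SNORD17 lies to the left of 0 and well above it, SNHG3 and SNORD46 lie near the dashed line of equal response, and the Huh7 value of SNORD12C is a fit against controls at 0.

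The proteins that make and hold small nucleolar RNAs were listed in both lines, except NOPCHAP1, and 31 of the list were tested. In HepG2, 10 were called higher and 1 lower (median log2 fold change 0.16), and in Huh7 27 higher and 2 lower (median 0.48). Over all genes tested 16.5% were called higher and 20.1% lower in HepG2, and 34.9% and 36.4% in Huh7. Without Ctrl-siRNA replicate 3, 12 were called higher and 2 lower in HepG2, against 21.0% and 24.2%. All 4 box C/D core genes rose in Huh7: the methyltransferase FBL (0.63 ± 0.05, adjusted p = 8.57e-07), the scaffolds NOP56 (0.49 ± 0.06, adjusted p = 1.12e-05) and NOP58 (0.87 ± 0.05, adjusted p = 3.47e-08), and SNU13 (0.75 ± 0.06, adjusted p = 4.40e-07), which also binds spliceosomal U4 RNA. In HepG2, FBL (0.36 ± 0.09, adjusted p = 0.0121), NOP58 (0.74 ± 0.11, adjusted p = 0.000962) and SNU13 (0.50 ± 0.09, adjusted p = 0.00232) rose, and NOP56 gave -0.04 ± 0.08 (adjusted p = 0.730). NOP58 and the nucleolin gene NCL are hosts themselves, of SNORD11 and SNORD82.

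Of the box H/ACA core, NOP10 rose in both lines (0.59 ± 0.10 in HepG2, adjusted p = 0.00246, and 0.44 ± 0.05 in Huh7, adjusted p = 1.15e-05). The pseudouridine synthase gene DKC1 and NHP2 rose in Huh7 by 0.32 ± 0.05 (adjusted p = 0.000113) and 0.23 ± 0.08 (adjusted p = 0.0226) and gave -0.04 ± 0.10 (adjusted p = 0.768) and 0.10 ± 0.17 (adjusted p = 0.676) in HepG2. GAR1 fell in HepG2 by 0.57 ± 0.13 on the log2 scale (adjusted p = 0.00878) and gave -0.12 ± 0.09 in Huh7 (adjusted p = 0.230). DBR1, the enzyme that opens intron lariats, rose in Huh7 from 38.4 ± 2.10 to 92.8 ± 5.04 CPM (SD, n = 3; 1.27 ± 0.06, adjusted p = 1.08e-08) and gave 0.39 ± 0.14 in HepG2 (adjusted p = 0.0628). AQR, the intron-binding helicase of the spliceosome, fell in Huh7 by 0.19 ± 0.04 on the log2 scale (adjusted p = 0.00227) and gave -0.03 ± 0.09 in HepG2 (adjusted p = 0.821). In Huh7, 10 of 11 assembly factors and 8 of 10 processing factors were called higher (34.9% of all genes tested), and in HepG2 3 of 11 and 2 of 10 (16.5%).

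**Figure D5:**
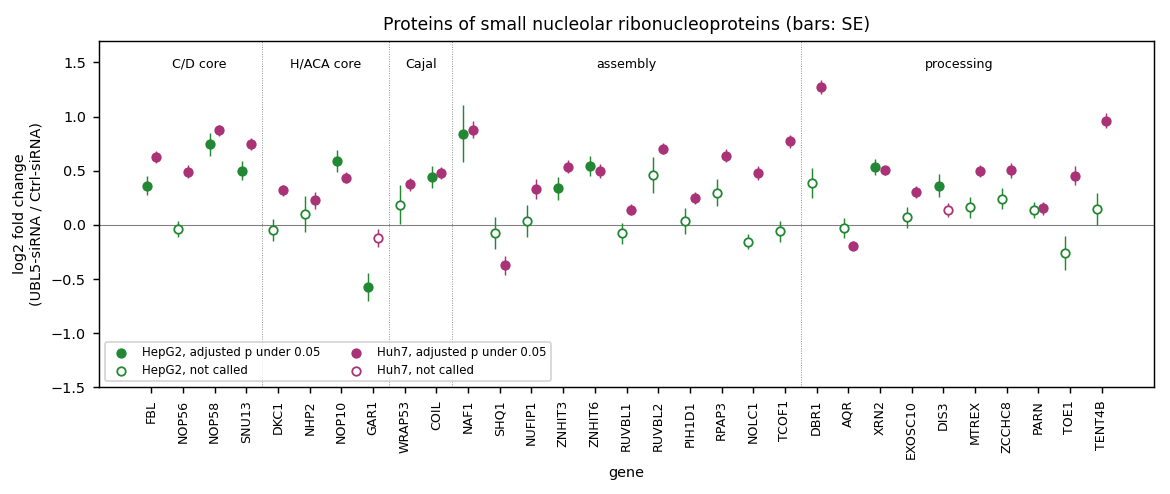
Log2 fold change of the genes for small nucleolar ribonucleoprotein proteins in HepG2 (green) and Huh7 (purple), with SE bars; filled symbols passed the edgeR test at an adjusted p under 0.05. The Huh7 points lie above 0 except for GAR1, SHQ1 and AQR, and DBR1 is the highest of them.

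Other RNAs that are normally not kept by poly(A) selection were counted beside the small RNAs. Among signal recognition particle, RNase, Y, vault and spliceosomal RNAs, 9 were listed in HepG2 and 5 in Huh7. They summed to 7.58 to 14.9 CPM in HepG2 controls and 14.4 to 17.9 CPM with UBL5 siRNA. In Huh7 the sums were 9.78 to 13.0 and 17.9 to 29.4 CPM. Most of this was RN7SL1, with means of 8.108 and 14.96 CPM in HepG2 and 9.932 and 20.63 CPM in Huh7. The sums therefore do not show a rise of the classes. Of the 2 tested in each line, 1 was called higher, and 2 in HepG2 without Ctrl-siRNA replicate 3. RN7SL1 was called higher in both lines (0.88 ± 0.16, adjusted p = 0.00332, and 1.04 ± 0.19, adjusted p = 0.000393). Listed microRNA genes, likewise processed from longer transcripts, were called higher in 3 of 8 tested cases in HepG2 and 7 of 10 in Huh7, against 16.5% and 34.9% of all genes tested, and lower in 0 (1 in HepG2 without Ctrl-siRNA replicate 3), with median log2 fold changes of 1.16 and 1.27. Mitochondrially encoded RNAs made up 1.91% to 2.35% of counts in HepG2 controls and 2.75% to 3.61% with UBL5 siRNA, and 2.46% to 3.30% and 2.66% to 3.72% in Huh7. These levels moved in the same direction as the small RNAs, and their part in the result was not tested.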

How the data were processed

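Raw counts per gene were deposited by the authors for 12 libraries, 3 each of Ctrl-siRNA and UBL5-siRNA in HepG2 and Huh7 cells, in tables of higher and lower genes per line that were joined here. Per the labels, short reads were demultiplexed with bcl2fastq, checked with FastQC 0.11.9, aligned to GRCh38 with STAR 2.7.6a and counted with featureCounts; the strand setting and annotation are not given in the sources used here. The other columns of the deposited tables, from DESeq2 1.30.0, hold the authors' own comparison (mean normalized count, log2 fold change, standard error, statistic, p-value and adjusted p-value) and were not used. Of the count columns, 0 were unmatched, and 0 rows lacked a gene symbol.

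Each line was fitted on all its listed genes with edgeR 4.0.16 in R 4.3.3 (filterByExpr with a minimum of 10 counts and a total of 15, TMM scaling, quasi-likelihood F test, Benjamini-Hochberg adjustment over all genes tested, threshold 0.05), and all 12 libraries for the interaction. CPM used TMM-scaled library sizes, and intervals are exact (Clopper-Pearson) at 95%. Hosts were found by containment on the same strand in GENCODE 44, and where several held an RNA the one with the highest mean CPM was taken. The scripts were tested on simulated counts with 200 changed genes. Alternatives were RLE scaling, no scaling, no filter, a minimum of 30 counts, DESeq2 1.42.0, leaving out each library, a replicate block, the next host where several, other prior counts for the change relative to the host (0.5 and 5 in place of 2) and members without exon overlap; leaving out both HepG2 libraries numbered 3, and counts over all listed genes, were added after seeing the data. Members and gene lists were chosen with earlier results of these data known. Named genes were the 4 hosts GAS5, ZFAS1, EPB41L4A-AS1 and SNHG1 with 6 others of highest CPM, the 5 highest and 5 lowest called hosts and the 6 highest and 6 lowest called small RNAs per line, the 4 small RNAs of highest CPM, their hosts, members differing between the lines, and core snoRNP proteins, DBR1, AQR and UBL5; other members were named after their values were seen.

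Pairing by replicate number was checked as the correlation of deviations from group means. Over all genes it was 0.124, 0.110 and 0.0729 in HepG2 and 0.161, 0.0155 and 0.212 in Huh7, and over genes at 10 CPM or more 0.408, 0.319 and 0.336 in HepG2 and 0.438, 0.0625 and 0.567 in Huh7. The main fits had no block in either line. For HepG2, where every pair correlated at 10 CPM or more, the blocked value is given beside a result whose call it changed; the labels give no source of pairing.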

Additional observations from a re-analysis of the deposited data

Results flagged for a closer look

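Of the members, 6 (5 of 25 host genes and 1 of 23 small RNAs tested) responded differently in the 2 lines by the interaction test in edgeR, where 21.5% of all genes tested did so. They are given as the Huh7 minus the HepG2 log2 response. The differences were 0.85 for SNHG1, 0.82 for SNHG11, -0.92 for SNHG19, 0.69 for SNHG20, 0.52 for SNHG7 and 2.41 for SNORD17. For SNHG7, SNHG20 and SNORD17 the UBL5-siRNA libraries lay below all controls in HepG2 and above all controls in Huh7. The values without HepG2 Ctrl-siRNA replicate 3 were 0.98 for SNHG1, 0.84 for SNHG11, -0.87 for SNHG19, 0.74 for SNHG20, 0.54 for SNHG7 and 2.19 for SNORD17, each with an adjusted p under 0.05. Without that library SNHG4 (0.67, adjusted p = 0.00744) and SNORD12C (4.49, adjusted p = 0.0223) differed as well.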

How the results depend on the processing

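Host genes called higher were 17 to 19 in Huh7 and 7 to 12 in HepG2 when 1 library was left out. Leaving out members that overlap another gene gave 11 in Huh7 and 6 in HepG2. Host genes called lower in HepG2 were 2 with no scaling factor and 0 to 1 leaving out 1 library; in Huh7 there was 1 with a minimum of 30 counts, as SNHG31 was no longer tested. The HepG2 median of host genes was 0.25 to 0.42 leaving out 1 library and 0.20 without both libraries numbered 3. Small RNA calls depended on filter and libraries. In HepG2, 2 were called with the 30-count minimum, 2 to 12 leaving out 1 library and 11 without both libraries numbered 3. In Huh7, 5 were called with the 30-count minimum and 31 with no filter, and the median became 2.04 and 2.08, as fewer or more RNAs were tested. HepG2 genes called lower over all tested were between 2024 and 3805 leaving out 1 library, and snoRNP genes called lower 1 to 2. Taking the next host where an RNA had several changed SNORA73B alone, and the median change relative to hosts was then 1.20 in HepG2. The median change of small RNAs relative to hosts was 1.47 in HepG2 and 1.26 in Huh7 on the log2 CPM scale; prior counts of 0.5 and 5 gave 2.23 and 0.93 in HepG2 and 1.67 and 0.82 in Huh7.

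With the replicate block 3 small RNAs and 11 host genes were called higher in HepG2, and 20 and 20 in Huh7. In Huh7, where pairing was not shown, EPB41L4A-AS1 (0.0074), SNHG19 (0.014) and SNORA33 (0.029) then passed. The block changed no other call of a member beyond those given above for HepG2.

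Sign changes concerned log2 fold changes of members without a call. With no scaling factor SNHG32 in HepG2 was -0.0091, and SNHG12, SNHG5 and SNHG6 in Huh7 were -0.0143, -0.0202 and -0.0012. Leaving out 1 library gave, in HepG2, -0.16 to 0.0428 for SNHG14, -0.0515 to 0.15 for SNHG32, -0.37 to 1.19 for SNORD101, -0.13 to 1.08 for SNORD15B, -0.79 to 0.63 for SNORD19C and -0.31 to 1.97 for SNORD6, and in Huh7 -0.0864 to 0.18 for SNHG12 and -0.38 to 0.31 for SNORD14A. Without both libraries numbered 3, SNHG4 was -0.0264 and SNORD19C 0.64. SNORD14A in Huh7 was 0.0425 with DESeq2, 0.0084 with RLE scaling, 0.0148 with no filter and 0.0740 with the block.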
